A study of Rattus norvegicus with 13 samples.

Results

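Enzymes that protect cells from oxidants and reactive aldehydes were followed in rat cholangiocarcinoma, a bile duct cancer, and in cell lines derived from it. They were chosen by name as a list, Gclc, Gclm, Gpx2, Gstp1, Txnrd1, Srxn1, Nqo1, Hmox1, Aldh3a1 and Aldh1a1, and all 10 were measured among 14217 genes on the arrays. They were listed by name and role, with no threshold on their levels, but with earlier results of these data known. Their counts beside those of all genes are therefore descriptions. Where several probe sets named a gene, the one with the highest mean over all 13 arrays stood for it.

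The tumours were 4 intrahepatic cholangiocarcinomas of young adult male Fischer 344 rats, snap-frozen after removal, that arose from BDEsp cells, spontaneously transformed BDE1 cholangiocytes of low-grade malignancy, inoculated into the bile duct. Both lines came from such tumours. The epithelial line was BDEsp-TDEH10, the cholangiocarcinoma cells, and the fibroblastic line was BDEsp-TDFE4, cancer-associated fibroblastic cells positive for α-SMA. Both lines were grown in collagen gels (type I, rat tail). There were 1 array of epithelial cells in co-culture with fibroblastic cells, 1 array of fibroblastic cells in co-culture with epithelial cells, 3 arrays of the epithelial line alone and 4 arrays of the fibroblastic line alone. Each group of cells was a single line, so a difference between the groups of arrays is a difference between these lines. Nothing in the labels says that arrays of a line came from separate cultures, so p-values measure the spread between these arrays, which may be technical.

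NRF2, the product of Nfe2l2, is a transcription factor that KEAP1 holds at a low level until oxidants or electrophiles modify KEAP1. NRF2 then pairs with a small MAF protein at antioxidant response elements and raises the transcription of enzymes that make glutathione, reduce thioredoxin and quinones, break down haem and clear aldehydes, while BACH1 represses some of the same genes, Hmox1 above all. Aldh3a1 is known in rat liver as an enzyme that xenobiotics and tumour growth switch on, and Aldh1a1 is known as an enzyme that makes retinoic acid and clears aldehydes.

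The promoters below are shown because antioxidant response elements are the sites through which NRF2 acts on these genes. RefSeq's promoter table for the rat genome build GRCr8 held windows for 8 of the 10 genes, with 9 windows in all, and the 250 bases before each start were read. The core letters of the element, TGACNNNGC on either strand, stood in 3373 of 33469 windows of this length over all genes, which is 10.1%. They stood in windows of 4 of the 8 genes, Gclm, Gpx2, Gstp1 and Txnrd1. The letters TGACTCA, the AP-1 site on either strand, stood in 1354 windows, 4.05% of all, and in those of Gstp1, where they overlap the other motif, and Srxn1. Neither motif was in the windows of Nqo1, Gclc or Aldh1a1, or in the other window of Txnrd1. The windows are written 5′ to 3′ on the strand of the gene, with the matched letters in capitals. They are chr2:213031885-213032134 on the plus strand for Gclm, chr6:101230034-101230283 on the minus strand for Gpx2, chr1:210769706-210769955 on the minus strand for Gstp1, chr7:22755905-22756154 on the minus strand for Txnrd1, chr3:161064562-161064811 on the plus strand for Srxn1 and chr19:52220268-52220517 on the minus strand for Nqo1. A match is a description of letters, and no binding was measured.
Gclm: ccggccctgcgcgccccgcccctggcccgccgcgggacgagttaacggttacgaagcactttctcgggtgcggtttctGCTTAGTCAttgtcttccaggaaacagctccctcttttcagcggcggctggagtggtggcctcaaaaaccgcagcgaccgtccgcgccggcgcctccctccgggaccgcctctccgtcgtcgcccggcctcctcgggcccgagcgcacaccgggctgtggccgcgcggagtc
Gpx2: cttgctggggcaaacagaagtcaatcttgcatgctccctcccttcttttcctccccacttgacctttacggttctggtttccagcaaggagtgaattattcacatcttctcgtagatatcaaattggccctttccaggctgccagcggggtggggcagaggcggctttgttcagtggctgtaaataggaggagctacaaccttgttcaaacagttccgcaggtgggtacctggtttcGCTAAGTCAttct
Gstp1: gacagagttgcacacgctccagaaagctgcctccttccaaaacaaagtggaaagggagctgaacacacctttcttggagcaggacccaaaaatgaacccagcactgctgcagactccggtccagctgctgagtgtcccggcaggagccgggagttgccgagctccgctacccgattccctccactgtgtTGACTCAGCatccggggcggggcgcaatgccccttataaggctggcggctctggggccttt
Txnrd1: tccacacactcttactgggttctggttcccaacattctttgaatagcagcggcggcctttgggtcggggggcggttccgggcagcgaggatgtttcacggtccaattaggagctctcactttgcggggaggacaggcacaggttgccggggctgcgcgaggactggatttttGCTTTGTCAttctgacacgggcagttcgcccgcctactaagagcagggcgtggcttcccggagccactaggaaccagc
Srxn1: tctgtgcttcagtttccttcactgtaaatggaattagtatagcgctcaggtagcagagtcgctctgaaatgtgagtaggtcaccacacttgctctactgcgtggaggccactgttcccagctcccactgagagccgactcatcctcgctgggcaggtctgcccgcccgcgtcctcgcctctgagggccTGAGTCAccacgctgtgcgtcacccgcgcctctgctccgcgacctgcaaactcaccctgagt
Nqo1: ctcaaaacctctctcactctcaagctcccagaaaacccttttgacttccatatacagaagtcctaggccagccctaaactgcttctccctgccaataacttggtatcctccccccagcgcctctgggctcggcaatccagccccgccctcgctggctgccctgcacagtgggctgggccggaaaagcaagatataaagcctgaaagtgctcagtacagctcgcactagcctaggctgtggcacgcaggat
The first matched letter lies 172 bases before the start in Gclm, 13 bases before it in Gpx2, 61 in Gstp1, 78 in Txnrd1 and 62 in Srxn1. The Nqo1 window is shown as an example with neither motif. Only the 250 bases before each start were read, so sites further away are not covered. A link between these motifs and the levels of the genes was not tested.

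Levels are log2 values computed by the authors with RMA, which summarises the probes of a probe set, and ran from 2.94 to 14.69 over the arrays. They can be compared between arrays for a gene but not between genes. The cell types of the labels were checked first. The 8 measured epithelial markers, such as the bile duct keratin Krt19, had array means of 12.05 to 12.62 (tumours), 12.81 to 13.10 (epithelial line) and 4.88 to 5.49 (fibroblastic line). The 10 mesenchymal markers had means of 11.30 to 11.68 (tumours), 5.37 to 5.50 (epithelial line) and 11.33 to 11.53 (fibroblastic line). Dcn and Lum among them were low in the fibroblastic line, at 4.26 to 6.84 and 3.52 to 5.34. In tumours they stood at 11.76 to 12.59 and 11.27 to 12.12. The co-culture arrays carried both lists, with epithelial averages of 12.41 and 12.32 and mesenchymal averages of 9.47 and 9.77 on the epithelial and the fibroblastic co-culture array. The 2 co-culture arrays are therefore described as arrays that hold RNA of both lines, and the enzymes called for their mean are also given. The tumours held other cells as well: macrophage markers averaged 10.46 to 10.79 in tumours and 5.01 to 5.52 in the lines, and the hepatocyte gene Alb stood at 14.51, 7.5, 13.94 and 14.46 in tumours 1 to 4, against 4.78 to 5.35 in the lines. In tissue and in mixed cultures, fewer cells of a type and less RNA per cell cannot be told apart.

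Most of the enzymes separated the lines. Tumours were called different from the fibroblastic line for each of the 10, and from the epithelial line for fewer of them. A difference that did not pass does not show likeness. Between the epithelial and the fibroblastic line, 5 of the 10 genes were higher and 3 lower in the epithelial line at an adjusted p under 0.05 by limma, beside 20.9% of all genes higher and 16.6% lower. Gclm, Gpx2, Txnrd1, Srxn1 and Aldh3a1 were higher, and Gclc, Nqo1 and Hmox1 were lower. Against the epithelial line, tumours had 3 genes higher, Gpx2, Hmox1 and Aldh1a1, beside 18.9% of all genes, and 1 lower, Aldh3a1, beside 33.2%. Against the fibroblastic line, tumours had 7 genes higher, beside 27.3% of all genes, and 3 lower, beside 33.5%, so that each of the 10 passed. Tumours were above both lines for Gpx2 and Aldh1a1, which 12.0% of all genes were, and between them for Hmox1 and Aldh3a1, as were 7.38%. The tumour comparisons share the tumour arrays, and the comparisons with the fibroblastic line share its 4 arrays. The median difference of all genes was 0.11 between the epithelial and the fibroblastic line, -0.17 for tumours minus the epithelial line and -0.07 for tumours minus the fibroblastic line. Centring every array on its median moved the split of calls over all genes to 3751 higher and 3431 lower for tumours against the epithelial line, where the deposited values gave 2685 and 4722, and to 5095 and 3821 against the fibroblastic line, where they gave 3888 and 4764. The calls of the 10 genes stayed at 3 higher and 1 lower and at 7 higher and 3 lower under that centring.

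**Figure D1:**
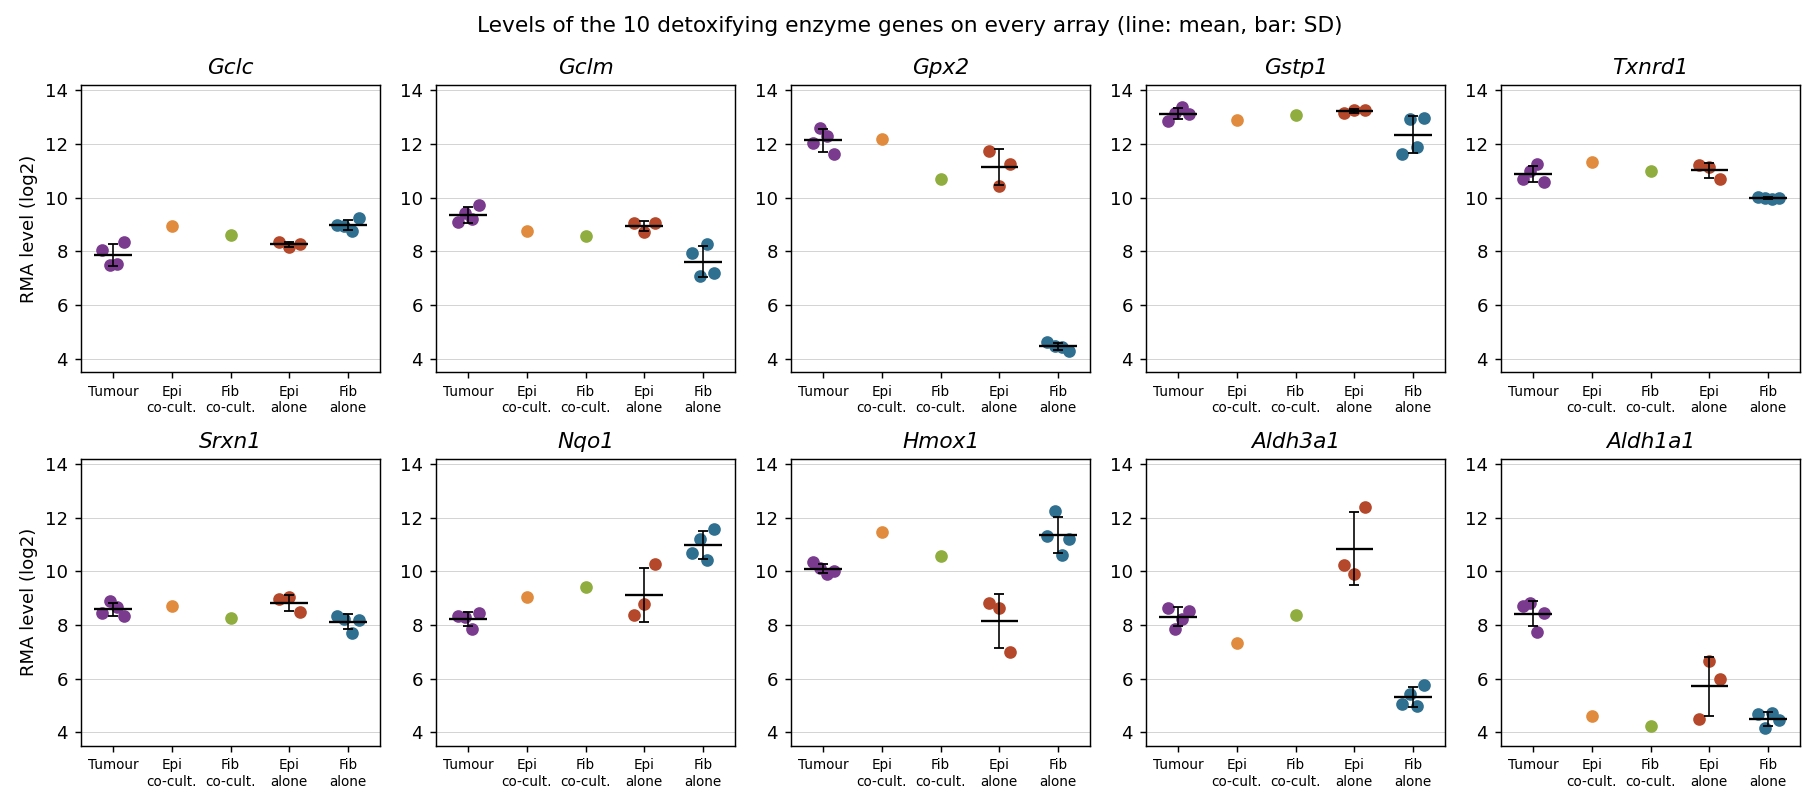
RMA level (log2) of each gene on every array, in tumours (4), the 2 co-culture arrays (1 each), the epithelial line alone (3) and the fibroblastic line alone (4), with the mean as a line and the SD as a bar. Gpx2 lies at 4.30 to 4.63 in the fibroblastic line and at 10.42 or more on every other array, and Aldh1a1 is high in the 4 tumours only, at 7.75 to 8.82.

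Glutathione is made in an initial, rate-limiting step by glutamate-cysteine ligase, and its catalytic subunit Gclc and its modifier subunit Gclm ran opposite to each other. Gclc stood at 8.05, 7.49, 7.54 and 8.34 in the 4 tumours, at 8.96 on the epithelial and 8.62 on the fibroblastic co-culture array, at 8.35, 8.15 and 8.26 in the epithelial line and at 8.97, 8.93, 8.77 and 9.23 in the fibroblastic line. Every fibroblastic array was above every epithelial and every tumour array. Tumours had less Gclc than the fibroblastic line (log2 difference with its SE -1.12 ± 0.19, adjusted p = 0.000561), and Gclc was lower in the epithelial than in the fibroblastic line (-0.72 ± 0.15, adjusted p = 0.00707). The second probe set of Gclc had smaller differences with the same sign that did not pass, -0.46 (adjusted p = 0.0800) for tumours and -0.36 (adjusted p = 0.176) for the epithelial line, each minus the fibroblastic line. Tumours minus the epithelial line gave -0.40 (adjusted p = 0.130), and -0.56 (adjusted p = 0.0312) without tumour 4.

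Gclm, which makes the ligase more active at low substrate, stood at 9.08, 9.43, 9.19 and 9.73 in tumours, at 8.74 on the epithelial and 8.57 on the fibroblastic co-culture array, at 9.07, 8.72 and 9.06 in the epithelial line and at 7.92, 7.06, 8.26 and 7.18 in the fibroblastic line. Tumours lay above all arrays of both lines, with tumour 1 only just above epithelial array 1. Gclm was 3.36-fold higher in tumours than in the fibroblastic line (log2 difference 1.75 ± 0.26, adjusted p = 0.000232) and 2.54-fold higher in the epithelial than in the fibroblastic line (1.34 ± 0.31, adjusted p = 0.00986). Tumours minus the epithelial line gave 0.40, with a 95% interval from -0.22 to 1.03 (adjusted p = 0.254), and 0.77 (adjusted p = 0.0367) after further quantile normalization. Over the 13 arrays the 2 subunits had a correlation of -0.76, which is a description of arrays that share groups.

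Gpx2, the glutathione peroxidase of gut and other epithelia, which reduces hydroperoxides with glutathione, had the widest range of the 10 genes. It stood at 12.04, 12.59, 12.29 and 11.61 in tumours, at 12.19 on the epithelial and 10.69 on the fibroblastic co-culture array, at 11.74, 10.42 and 11.25 in the epithelial line and at 4.63, 4.46, 4.44 and 4.30 in the fibroblastic line. The fibroblastic line was far below every other array, near the low end of the values, where the files give no call of detection. Gpx2 was 205-fold higher in tumours (log2 difference 7.68 ± 0.27, adjusted p = 9.46e-09) and 103-fold higher in the epithelial line (6.68 ± 0.29, adjusted p = 1.19e-06), each against the fibroblastic line. In tumours it was also higher than in the epithelial line, by 1.00 ± 0.30 (adjusted p = 0.0167), although tumour 4 lay below epithelial array 1. Without epithelial array 2, the lowest of that line, that difference was 0.64 (adjusted p = 0.0649). Tumour 2, with the least Alb, had the highest Gpx2.

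Gstp1, the pi-class glutathione S-transferase that marks preneoplastic foci in rat liver, couples glutathione to electrophiles. It stood at 12.85, 13.17, 13.37 and 13.12 in tumours, at 12.91 on the epithelial and 13.06 on the fibroblastic co-culture array, at 13.15, 13.28 and 13.26 in the epithelial line and at 11.63, 12.93, 11.88 and 12.96 in the fibroblastic line. Fibroblastic arrays 2 and 4 were close to the tumours, and arrays 1 and 3 were lower. Gstp1 was higher in tumours than in the fibroblastic line by 0.78 ± 0.29 (adjusted p = 0.0355), a call that leaving out tumour 2, 3 or 4 or fibroblastic array 1 or 3 ended (adjusted p up to 0.0949). The epithelial arrays were all above the fibroblastic ones, but the difference of 0.88 ± 0.35 did not pass (adjusted p = 0.0818). It passed without fibroblastic array 2 (1.07, adjusted p = 0.0456) or 4 (1.08, adjusted p = 0.0463), and without both it was 1.47 (adjusted p = 0.000998). Tumours minus the epithelial line gave -0.10 (adjusted p = 0.805).

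Txnrd1 and Srxn1 were higher in tumours and in the epithelial line than in the fibroblastic line, Srxn1 only narrowly. Txnrd1, the cytosolic reductase that returns electrons from NADPH to thioredoxin, stood at 10.69, 11.01, 11.24 and 10.59 in tumours, at 11.33 on the epithelial and 10.98 on the fibroblastic co-culture array, at 11.20, 11.14 and 10.71 in the epithelial line and at 9.93 to 10.03 in the 4 fibroblastic arrays. The fibroblastic arrays lay below all others and close together. Txnrd1 was higher by 0.90 ± 0.16 in tumours (adjusted p = 0.000789) and by 1.03 ± 0.16 in the epithelial line (adjusted p = 0.00144), each against the fibroblastic line. Tumours minus the epithelial line gave -0.13, with an interval from -0.52 to 0.25 (adjusted p = 0.543). The dimmer second probe set of Txnrd1 went the other way there, with 9.84, 10.36, 10.43 and 9.79 in tumours against 8.94, 8.79 and 8.77 in the epithelial line, a difference of 1.27 (adjusted p = 0.000459), so no direction for Txnrd1 in tumours against the epithelial line is given.

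Srxn1, sulfiredoxin, which restores overoxidised peroxiredoxins, stood at 8.46, 8.88, 8.67 and 8.33 in tumours, at 8.72 on the epithelial and 8.26 on the fibroblastic co-culture array, at 8.97, 9.03 and 8.49 in the epithelial line and at 8.35, 8.23, 7.72 and 8.20 in the fibroblastic line. The groups lay close together, and tumour 4 was below fibroblastic array 1. Srxn1 passed narrowly, at 0.46 ± 0.19 for tumours (adjusted p = 0.0496) and 0.70 ± 0.21 for the epithelial line (adjusted p = 0.0308), each minus the fibroblastic line. The tumour call ended without any one of tumours 1, 2 and 3, epithelial arrays 1 and 2, and fibroblastic arrays 2, 3 and 4 (adjusted p up to 0.133). The epithelial arrays enter that call only through the spread, which was estimated over all arrays fitted together. The line call ended without any one of epithelial arrays 1 and 2 and fibroblastic arrays 3 and 4 (adjusted p up to 0.103). Its second probe set was 1.81 higher in tumours (adjusted p = 2.45e-05) and 0.84 higher in the epithelial line (adjusted p = 0.0132), and it was 0.98 higher in tumours than in the epithelial line (adjusted p = 0.00383), where the main probe set gave -0.24 (adjusted p = 0.335). The last of its probe sets, a dim one, differed by 0.02 between tumours and the fibroblastic line (adjusted p = 0.892).

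Nqo1, the quinone reductase often read as a reporter of NRF2, ran against Gclm and Gpx2. It stood at 8.35, 8.29, 7.86 and 8.45 in tumours, at 9.04 on the epithelial and 9.42 on the fibroblastic co-culture array, at 8.36, 8.77 and 10.26 in the epithelial line and at 10.69, 11.22, 10.42 and 11.57 in the fibroblastic line. All fibroblastic arrays were above all others, and epithelial array 3 stood well above the other two of its line. Nqo1 was 6.66-fold lower in tumours than in the fibroblastic line (log2 difference -2.74 ± 0.39, adjusted p = 0.000144) and 3.60-fold lower in the epithelial than in the fibroblastic line (-1.85 ± 0.47, adjusted p = 0.0160). The line difference was -1.46 (adjusted p = 0.0590) without epithelial array 1, -1.67 (adjusted p = 0.0602) without epithelial array 2, and -1.43 (adjusted p = 0.0874) without fibroblastic arrays 2 and 4. Tumours minus the epithelial line gave -0.89 (adjusted p = 0.0953), and -1.27 (adjusted p = 0.0360) without epithelial array 1.

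Hmox1, haem oxygenase 1, which splits haem into biliverdin, iron and carbon monoxide, was also higher in the fibroblastic than in the epithelial line, but tumours had more of it than the epithelial line. It stood at 10.33, 10.12, 9.92 and 10.02 in tumours, at 11.45 on the epithelial and 10.58 on the fibroblastic co-culture array, at 8.83, 8.62 and 7.0 in the epithelial line and at 11.32, 12.24, 10.62 and 11.22 in the fibroblastic line. The 3 groups did not overlap, with tumours in the middle. Hmox1 was 3.86-fold higher in tumours than in the epithelial line (1.95 ± 0.44, adjusted p = 0.00441) and 2.38-fold lower in tumours than in the fibroblastic line (-1.25 ± 0.41, adjusted p = 0.0219). It was 9.19-fold lower in the epithelial than in the fibroblastic line (-3.20 ± 0.51, adjusted p = 0.00179). The comparison of tumours with the fibroblastic line lost its call without tumour 3 (-1.19, adjusted p = 0.0513) or fibroblastic array 2 (-0.96, adjusted p = 0.0606), and after further quantile normalization (-1.01, adjusted p = 0.0533). Macrophage markers, given above, were also higher in all 4 tumours than in the lines, and their part in the Hmox1 level was not tested.

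The aldehyde dehydrogenases gave opposite pictures of tumours against the epithelial line. Aldh3a1, which oxidises aromatic and lipid-derived aldehydes, stood at 8.63, 7.85, 8.24 and 8.51 in tumours, at 7.34 on the epithelial and 8.37 on the fibroblastic co-culture array, at 10.24, 9.89 and 12.39 in the epithelial line and at 5.07, 5.44, 4.98 and 5.78 in the fibroblastic line. The tumours and the lines alone did not overlap, the fibroblastic co-culture array lay within the tumour range, and epithelial array 3 stood well above the rest of its line. Aldh3a1 was 46.1-fold higher in the epithelial than in the fibroblastic line (5.53 ± 0.56, adjusted p = 0.000149). Tumours were 7.95-fold higher than the fibroblastic line (2.99 ± 0.46, adjusted p = 0.000286) and 5.80-fold lower than the epithelial line (-2.54 ± 0.50, adjusted p = 0.00199). Without epithelial array 3 the log2 difference was 4.75 for the epithelial minus the fibroblastic line (adjusted p = 3.4e-05) and -1.76 for tumours minus the epithelial line (adjusted p = 0.000932).

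Aldh1a1 was higher in tumours than in both lines and than in the mean of the co-cultures. It stood at 8.69, 8.82, 7.75 and 8.46 in tumours, at 4.61 on the epithelial and 4.24 on the fibroblastic co-culture array, at 4.50, 6.67 and 5.98 in the epithelial line and at 4.69, 4.14, 4.73 and 4.47 in the fibroblastic line. The lowest tumour was above the highest array of the cultures. Aldh1a1 was 6.55-fold higher in tumours than in the epithelial line (2.71 ± 0.44, adjusted p = 0.000622) and 15.1-fold higher than in the fibroblastic line (3.92 ± 0.41, adjusted p = 1.63e-05). Without epithelial array 1, tumours minus the epithelial line gave 2.10 (adjusted p = 0.000950). The fibroblastic arrays, epithelial array 1 and both co-culture arrays lay near the low end of the values, with no call of detection, so the folds against them depend on that low level. The epithelial minus fibroblastic difference of 1.21 ± 0.46 did not pass (adjusted p = 0.0724), but without epithelial array 1, which was at the fibroblastic level, it was 1.82 (adjusted p = 0.00240). Hepatocyte markers averaged 5.76 to 13.57 in the tumours and 4.77 to 5.35 in the cultures. Tumour 2, in which that average was lowest, had the highest Aldh1a1, at 8.82, and the part of hepatocyte RNA in these levels was not tested.

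**Figure D2:**
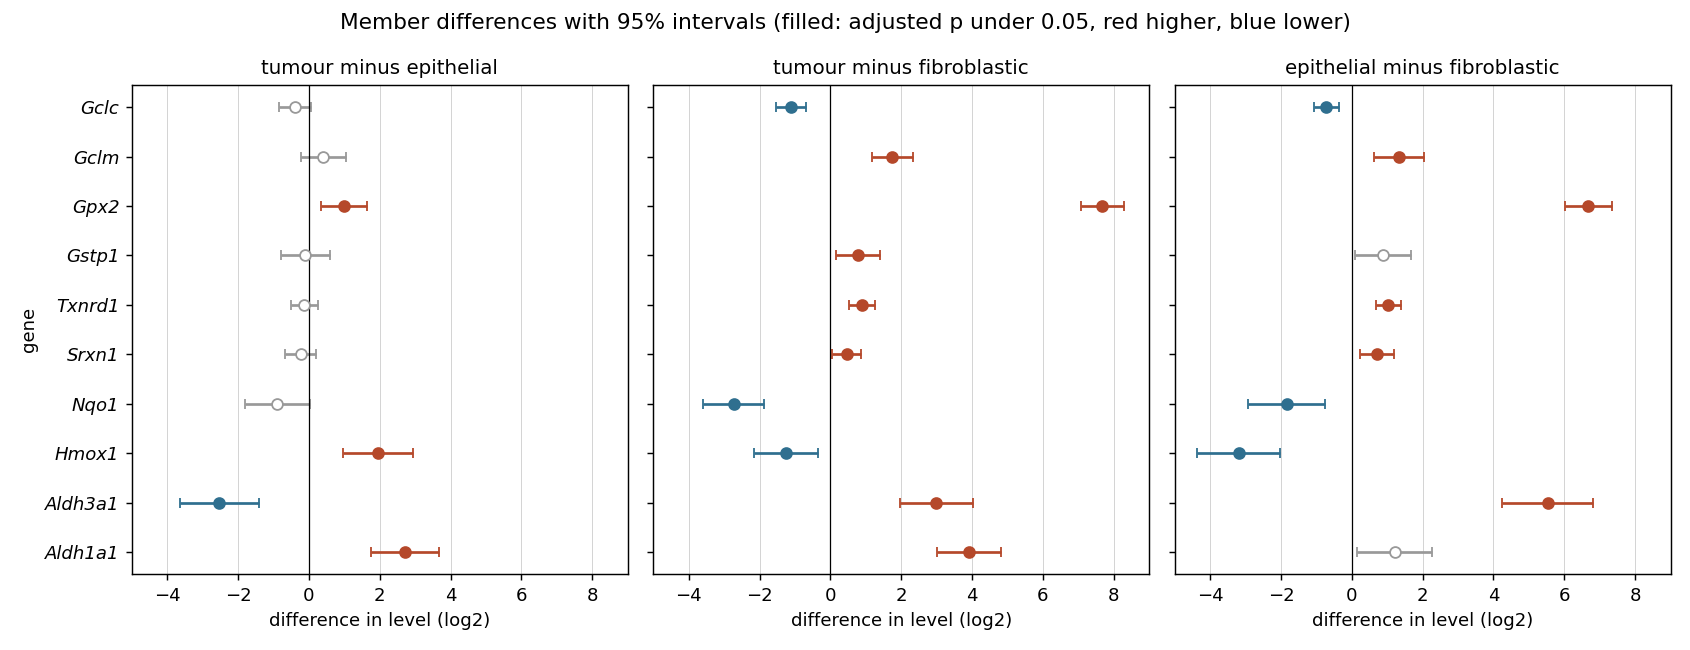
Log2 differences of the 10 genes with 95% intervals for tumours minus the epithelial line, tumours minus the fibroblastic line and the epithelial minus the fibroblastic line; filled points passed an adjusted p of 0.05, red higher and blue lower. Gpx2 has the largest difference in both comparisons with the fibroblastic line, 7.68 and 6.68.

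Replicate arrays of a line differed by more for some of these genes than for most genes. In the epithelial line the SD of Aldh3a1, 1.36, was above that of 99.0% of all genes, and those of Aldh1a1, Hmox1 and Nqo1 were above 98.4%, 98.0% and 97.9%. Array 3 was the high one for Aldh3a1 and Nqo1 and the low one for Hmox1, while array 1 was the low one for Aldh1a1. In the fibroblastic line, arrays 2 and 4 stood apart from 1 and 3, with Nqo1 at 11.22 and 11.57 against 10.42 to 10.69, Gstp1 at 12.93 and 12.96 against 11.63 to 11.88, and Gclm at 7.06 and 7.18 against 7.92 to 8.26. The gap between 3′ and 5′ probes for beta-actin, a sign of RNA quality that grows as RNA shortens, was 2.65 and 2.01 on fibroblastic arrays 2 and 4, 1.72 and 1.05 on arrays 1 and 3, 0.61 to 0.75 in tumours, 0.96 and 0.85 on the epithelial and fibroblastic co-culture arrays and 0.86 to 1.47 in the epithelial line. For GAPDH the same gap ran only from -0.14 to 0.27 over the arrays. It was 0.27 and 0.15 on fibroblastic arrays 2 and 4, and 0.15 and -0.04 on arrays 1 and 3. The part of RNA quality in these differences was not tested. Acta2, the α-SMA gene, was 9.29 and 10.29 on fibroblastic arrays 2 and 4 and 12.13 and 12.04 on arrays 1 and 3.

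The co-cultures were set against each line alone with 1 array each, so the spread of these lone arrays was taken to equal that of the groups with replicates. On the epithelial co-culture array, Hmox1 was 9.87-fold higher than in the epithelial line (3.30 ± 0.77, adjusted p = 0.0418) and Aldh3a1 11.4-fold lower (-3.51 ± 0.85, adjusted p = 0.0471). These were 1 of the 10 genes higher and 1 lower, beside 4.87% and 2.37% of all genes. Both calls lay near the threshold. The fibroblastic arrays enter them only through the spread, which was estimated over all arrays fitted together. Hmox1 was not called when 1 of epithelial arrays 1 and 2 and fibroblastic arrays 1 and 4 was left out (adjusted p up to 0.0700), and Aldh3a1 was not called when epithelial array 1 or any 1 of the 4 fibroblastic arrays was left out (adjusted p up to 0.0705). Without epithelial array 3 the Aldh3a1 difference was -2.73 (adjusted p = 0.00905).

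On the fibroblastic co-culture array, 2 of the 10 genes were higher than in the fibroblastic line, beside 4.78% of all genes, and 0 were lower, beside 3.63% (0 also at an unadjusted p under 0.05). Gpx2 was 75.5-fold higher (6.24 ± 0.42, adjusted p = 0.000146), and Txnrd1 was 1.99-fold higher (0.99 ± 0.23, adjusted p = 0.0373), which was lost when epithelial array 2 or any 1 of the 4 fibroblastic arrays was left out (adjusted p up to 0.0792). Aldh3a1 gave 3.05 ± 0.82 (adjusted p = 0.0636), which passed without epithelial array 3 (adjusted p = 0.00367). The epithelial markers were higher on that array as well, 8 of 8 by the same test, with a median log2 difference of 7.48.

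The co-culture difference was then compared between the lines, as the epithelial co-culture minus epithelial difference less the fibroblastic co-culture minus fibroblastic difference. It was -5.19 ± 0.61 for Gpx2 (adjusted p = 0.00135) and -6.56 ± 1.18 for Aldh3a1 (adjusted p = 0.0115), so 2 of the 10 genes were lower in this sense, beside 3.76% of all genes, and 0 higher, beside 4.66% (2 at an unadjusted p under 0.05). Hmox1 gave 4.07 ± 1.07 (adjusted p = 0.0584), which passed without fibroblastic array 3 (adjusted p = 0.0479) or epithelial array 3 (adjusted p = 0.0453). The same comparison passed for 7 of 8 epithelial markers, all lower, with a median of -7.84, and both genes are high in the epithelial line alone. The value equals the gap between the co-culture arrays less the gap between the lines, and for Gpx2 the arrays were at 12.19 and 10.69 while the lines differed by 6.68. As both arrays held RNA of both lines, a response of a line and RNA of the other line cannot be told apart here. Without epithelial array 3 the value for Aldh3a1 was -5.78 (adjusted p = 0.00118).

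Because each co-culture array held both lines, their mean was also set against each line, a comparison added after the arrays had been seen. Against the epithelial line, Hmox1 was higher (2.87 ± 0.61, adjusted p = 0.0182) and Aldh3a1 lower (-2.99 ± 0.67, adjusted p = 0.0222, and -2.21 without epithelial array 3), that is 1 gene each way beside 7.97% and 7.36% of all genes. Against the fibroblastic line, Gpx2 (6.98 ± 0.33, adjusted p = 1.04e-05), Aldh3a1 (2.54 ± 0.64, adjusted p = 0.0296) and Txnrd1 (1.17 ± 0.18, adjusted p = 0.00337) were higher, 3 genes beside 8.47% of all genes, and 0 lower, beside 8.85% (1, Nqo1, at an unadjusted p under 0.05). The Aldh3a1 call against the fibroblastic line ended without fibroblastic array 1, 2 or 3 (adjusted p up to 0.0621). Tumours were set against the same mean, also a comparison added after the arrays had been seen, and had more Aldh1a1 (4.01 ± 0.50, adjusted p = 0.000197) and less Gclc (-0.93 ± 0.23, adjusted p = 0.0125), beside 11.7% of all genes higher and 21.0% lower. Centring the arrays moved that split over all genes from 1668 higher and 2991 lower to 2915 higher and 2110 lower, and left the calls of the 10 genes at 1 and 1. The Gclc difference did not pass with its second probe set (-0.59, adjusted p = 0.111) or after further quantile normalization (-0.65, adjusted p = 0.0729).

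The arrays of mixed RNA can be placed between the lines on a linear scale, where the lower line is 0% and the higher line alone is 100%. Gpx2, Aldh3a1 and Hmox1 differ enough between the lines, by over 8-fold, for such a place to be read. Gpx2 reached 194% on the epithelial and 68.5% on the fibroblastic co-culture array, against 56.7% to 142% over the epithelial arrays. Aldh3a1 reached 4.89% and 11.7% on the same arrays, below the 36.7% of the lowest epithelial array. The 8 epithelial markers had medians of 59.2% and 61.8% there, with the lowest at 45.2%, so Aldh3a1 lay below each of the 8 on both arrays. Hmox1 reached 98.6% and 47.9% of the fibroblastic line, whose own arrays ran from 49.9% to 179%. The 8 mesenchymal markers that were called and over 8-fold apart between the lines had medians of 28.3% and 24.1%, with a range from 1.19% to 113%. Dcn and Lum, the others of that list, were not called between the lines and were left out. On the epithelial co-culture array Gpx2 and Txnrd1 were above every array of both lines alone, as were 10.2% of all genes, and no other gene of the 10 left the range of the lines on either co-culture array. Of all genes, 15.2% lay below that range on the epithelial co-culture array, and 9.15% above and 12.4% below it on the fibroblastic one. The labels give a range of fibroblast plating densities and not the one used, so the shares of the lines in these gels are not known.

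**Figure D3:**
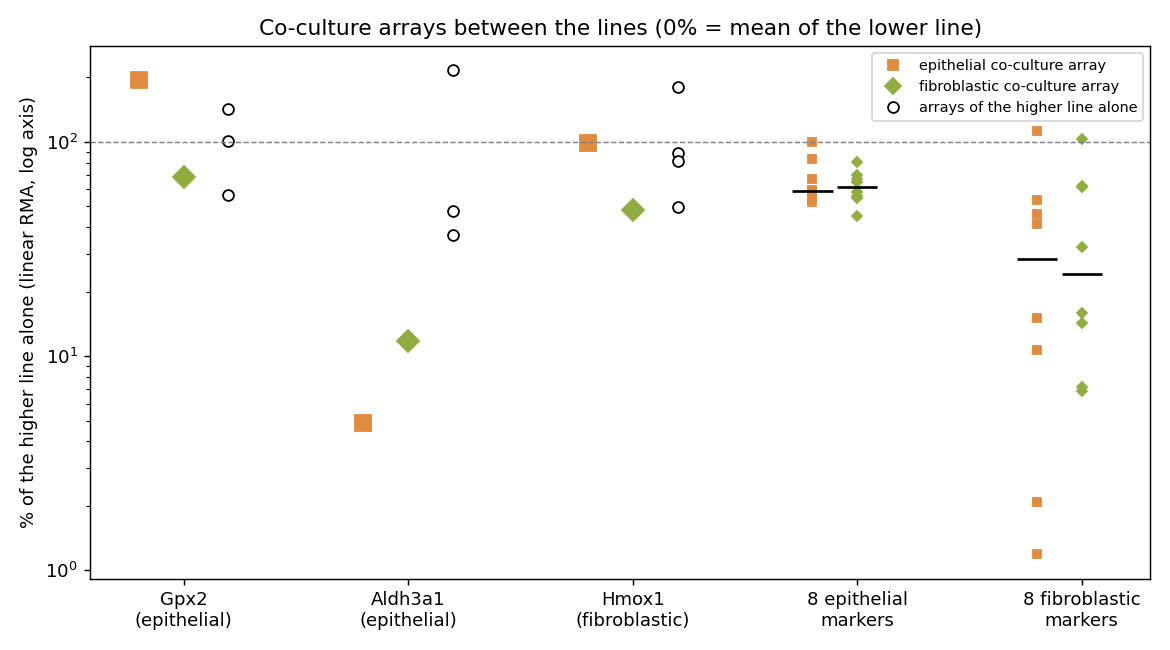
Place of the 2 co-culture arrays between the lines for 3 enzymes and for 8 epithelial and 8 fibroblastic markers, as % of the higher line alone on a log axis (linear RMA values, 0% being the mean of the lower line; open circles are arrays of the higher line, bars medians of the markers). Dcn and Lum, not called between the lines, are left out of the fibroblastic markers. Aldh3a1 lies at 4.89% and 11.7%, below the epithelial markers at 45.2% to 100.2%.

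Other genes listed by role around the NRF2 pathway, and others of the aldehyde dehydrogenase family, 85 measured genes in 7 lists, held calls in both directions. A place in a list goes by role and does not mean that NRF2 acts on the gene. Beside the counts below, 20.9% of all genes were higher and 16.6% lower in the epithelial than in the fibroblastic line, 18.9% and 33.2% in tumours than in the epithelial line, and 27.3% and 33.5% in tumours than in the fibroblastic line. The counts under other scalings were added after the data had been seen. Among the counts of 0 given here for these lists, none changed at an unadjusted p under 0.05. Of the 10 regulators, tumours had 0 higher and 6 lower than the epithelial line and 2 higher and 8 lower than the fibroblastic line, with median differences of -0.66 and -0.76 beside -0.17 and -0.07 over all genes. Centring the arrays made these 1 higher and 6 lower, and 2 higher and 6 lower, and further quantile normalization 0 higher and 4 lower, and 1 higher and 5 lower. Nfe2l2 itself stood at 9.93, 10.20, 9.87 and 10.04 in tumours, at 10.56 and 10.94 on the epithelial and fibroblastic co-culture arrays, at 9.95, 10.27 and 10.98 in the epithelial line and at 10.74, 11.86, 11.02 and 11.58 in the fibroblastic line. It was lower in tumours than in the fibroblastic line (-1.29 ± 0.27, adjusted p = 0.00194), while epithelial minus fibroblastic gave -0.90 (adjusted p = 0.0677). Keap1 was also lower in tumours, with differences of -0.66 ± 0.13 from the epithelial (adjusted p = 0.00177) and -0.49 ± 0.12 from the fibroblastic line (adjusted p = 0.00472), though after further quantile normalization the second, at -0.27, was not called. Bach1 was 0.36 higher in tumours than in the fibroblastic line (adjusted p = 0.0393) and gave 0.24 against the epithelial line (adjusted p = 0.195), but both signs turned after further quantile normalization, to -0.10 and -0.25.

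Among the partners and relatives of NRF2, Maff, a small MAF protein, was at a lower level in tumours than in the epithelial line (-1.57 ± 0.35, adjusted p = 0.00391), as was Mafk (-1.17 ± 0.28, adjusted p = 0.00621). Nfe2l1, a related factor, was lower in tumours (-2.20 ± 0.16, adjusted p = 1.13e-06) and in the epithelial line (-1.03 ± 0.19, adjusted p = 0.00329) than in the fibroblastic line. Maff was high in the co-cultures, at 9.87 and 9.69 on the epithelial and fibroblastic co-culture arrays, against 7.53, 8.06 and 8.25 in the epithelial line and 6.92, 7.49, 6.63 and 8.09 in the fibroblastic line. Both arrays were above each array of the lines. The mean of the co-cultures was higher by 1.83 ± 0.42 than the epithelial (adjusted p = 0.0252) and by 2.50 ± 0.40 than the fibroblastic line (adjusted p = 0.00438), and Maff was lower in tumours than in that mean (-3.40 ± 0.40, adjusted p = 0.000135).

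Genes that make or use glutathione split between the lines in both directions. Of 23 measured, 11 were higher and 5 lower in the epithelial than in the fibroblastic line, led by the transferases Mgst1 (4.36 ± 0.46, adjusted p = 0.000198) and Gstk1 (4.19 ± 0.31, adjusted p = 2.46e-05), while the plasma peroxidase Gpx3 (-4.30 ± 0.59, adjusted p = 0.000857) and the transferase Gsta1 (-3.12 ± 0.71, adjusted p = 0.0101) were lower. Tumours had 11 higher and 3 lower than the fibroblastic line, and 6 higher and 4 lower than the epithelial line, among them Gpx3 (5.24 ± 0.52, adjusted p = 3.07e-05) and Gstm1 (4.09 ± 0.85, adjusted p = 0.00260). Gstm1 was 10.65, 6.70, 8.59 and 11.12 in tumours 1 to 4, lowest in tumour 2 as Alb was. The median difference of the list was 0.51 between the lines, -0.20 for tumours minus the epithelial line and 0.82 for tumours minus the fibroblastic line. Slc7a11, the cystine carrier that feeds glutathione synthesis, was higher in the epithelial than in the fibroblastic line (1.83 ± 0.46, adjusted p = 0.0152), and gave -0.90 (adjusted p = 0.119) and 0.92 (adjusted p = 0.0789) for tumours against the epithelial and the fibroblastic line.

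Of 15 thioredoxin and peroxide genes, 3 were higher and 2 lower in the epithelial than in the fibroblastic line, near the shares of all genes. Sod2, the mitochondrial superoxide dismutase, was among the higher ones (1.61 ± 0.34, adjusted p = 0.00672), and Sod3, the extracellular one, was much lower (-5.98 ± 0.26, adjusted p = 1.21e-06). Tumours had 2 higher and 3 lower than the epithelial line, and 2 higher and 3 lower than the fibroblastic line, each a smaller share than over all genes. The list's median difference was 0.21 between the lines, beside 0.11 over all genes, and -0.25 and -0.17 for tumours minus the epithelial and the fibroblastic line, the last turning to 0.02 with arrays centred and 0.03 after further quantile normalization. Prdx5, a peroxiredoxin, was higher in the mean of the co-cultures than in either line, by 1.27 ± 0.24 against the epithelial (adjusted p = 0.0106) and 1.27 ± 0.22 against the fibroblastic line (adjusted p = 0.00660).

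NADPH supplies the electrons for both systems. Of 5 genes that make it, 4 were higher and 0 lower in the epithelial than in the fibroblastic line, and 4 higher and 1 lower in tumours than in the fibroblastic line. Tkt, transketolase, was 1.68 ± 0.13 higher in the epithelial line (adjusted p = 2.69e-05), and Pgd, a dehydrogenase of the pentose phosphate pathway, was 2.16 ± 0.19 higher in tumours (adjusted p = 5.95e-06), each against the fibroblastic line. The list's median was 1.41 between the lines, and -0.22 and 1.19 for tumours minus the epithelial and the fibroblastic line. Me1, malic enzyme, was lower in the mean of the co-cultures than in either line, with differences of -1.86 ± 0.30 from the epithelial (adjusted p = 0.00559) and -2.28 ± 0.28 from the fibroblastic line (adjusted p = 0.00129).

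The 5 haem and iron genes had 1 higher and 1 lower in the epithelial than in the fibroblastic line, 1 higher and 2 lower in tumours than in the epithelial line (1 and 0 when the arrays were centred), and 0 higher and 1 lower in tumours than in the fibroblastic line. Its medians were -0.31 between the lines, and -0.08 and -0.14 for tumours minus the epithelial and the fibroblastic line, both of which turned positive with arrays centred (0.12 and 0.05) and after further quantile normalization (0.07 and 0.20). Slc40a1, ferroportin, the iron exporter, was 2.11 ± 0.53 higher in tumours than in the epithelial line (adjusted p = 0.00775), and Hmox2, the constitutive haem oxygenase, was 0.68 ± 0.15 higher in the epithelial than in the fibroblastic line (adjusted p = 0.00893), opposite in sign to Hmox1. Of 13 genes of conjugation, carbonyl reduction and efflux, 4 were higher and 0 lower in the epithelial than in the fibroblastic line, led by the aldehyde reductase Akr7a3 (3.95 ± 0.39, adjusted p = 0.000127). Tumours had 2 higher and 6 lower than the epithelial line, among them the export pump Abcc3 (-2.42 ± 0.34, adjusted p = 0.000250), and 5 higher and 4 lower than the fibroblastic line. The medians were 0.43 between the lines, and -0.54 and 0.29 for tumours minus the epithelial and the fibroblastic line.

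Of 14 other aldehyde dehydrogenases, 5 were higher and 2 lower in the epithelial than in the fibroblastic line, with Aldh3b1 among the higher ones (1.86 ± 0.27, adjusted p = 0.00104). Tumours had 4 higher and 3 lower than the epithelial line, and 5 higher and 0 lower than the fibroblastic line. The medians were 0.40 between the lines, -0.10 for tumours minus the epithelial line, which turned to 0.10 with arrays centred and 0.07 after further quantile normalization, and 0.37 for tumours minus the fibroblastic line. Aldh1l1, a folate enzyme of liver, was higher in tumours than in the epithelial line (1.92 ± 0.52, adjusted p = 0.0109), at 7.93, 5.82, 6.09 and 8.13 in tumours 1 to 4, and its lowest value was in tumour 2, as for Alb. Aldh3a2, the fatty aldehyde dehydrogenase, was lower, as Aldh3a1 was, in the mean of the co-cultures than in the epithelial line (-1.42 ± 0.28, adjusted p = 0.0144).

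**Figure D4:**
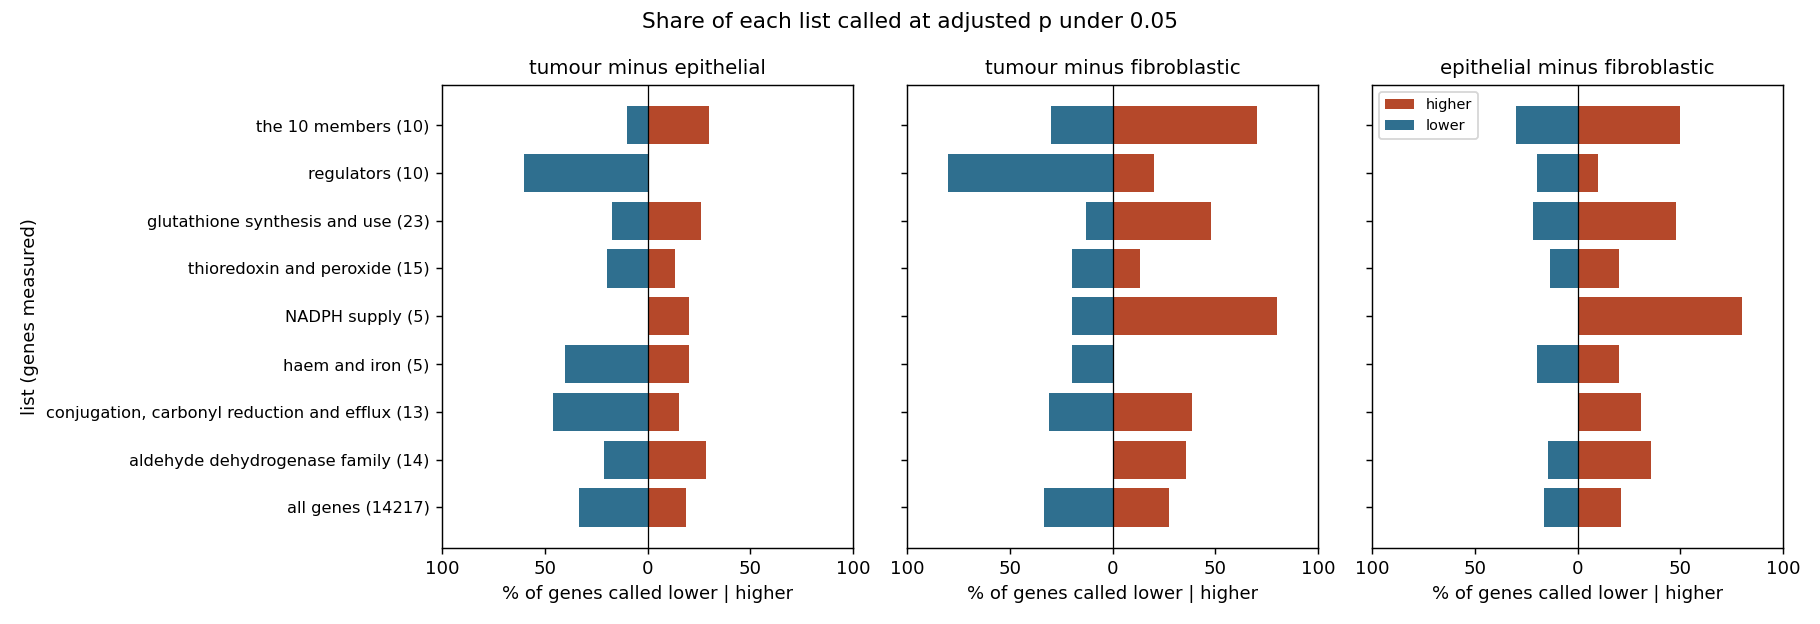
Share of each list called higher (red, right of 0) or lower (blue, left of 0) at an adjusted p under 0.05 in 3 comparisons, with the number of measured genes in brackets and all 14217 genes at the bottom. The regulators have 0 of 10 higher and 6 of 10 lower in tumours than in the epithelial line.

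The genes whose levels most resembled those of the 10 were ranked by Pearson correlation of log2 levels over the 13 arrays, which share groups, so the values describe and test nothing. Gpx2 was most like the epithelial adhesion gene Epcam (0.99) and Tlr2 (0.99), and Aldh1a1 was most like Agmo (0.98) and Hnf4a (0.97). Aldh3a1 was most like Gnpat (0.97) and Abhd11 (0.95), Nqo1 like Tcf25 and Mbtps1 (0.96 each), and Hmox1 like Dnase1l1 (0.95) and Emilin1 (0.93). For Gclc they were Dusp1 and Gkap1 (0.95 each), for Gclm Nxt2 (0.97) and Entr1 (0.96), for Gstp1 Samd1 (0.96) and Ano1 (0.95), for Txnrd1 Cdk5 (0.97) and Ngef (0.96), and for Srxn1 Card14 (0.91) and Zdhhc22 (0.90). Among the 10 themselves, Txnrd1 and Gpx2 had 0.91, Gclm and Gpx2 0.88 and Nqo1 and Gclc 0.80, while Hmox1 and Aldh3a1 had -0.90 and Nqo1 and Gpx2 -0.89. Nqo1 and Hmox1 had 0.37.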

How the data were processed

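Gene expression was measured on single-colour Affymetrix rat arrays from 13 samples. Per the labels' protocols, total RNA was extracted with Trizol and made into biotinylated cRNA. The authors computed the deposited values by RMA, per the submitters' processing notes; their log2 scale was read from the values, which ran from 2.94 to 14.69 with array medians of 6.15 to 6.25. Neither the version of RMA nor the arrays normalised together could be read from the labels. No detection call was used, and precision is limited by the number of arrays.

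The platform annotation gave 1 gene to 20826 of the 31099 probe sets, several genes to 436 and no gene to 9780, the other 57 being controls. Those with a single gene stood for 14217 genes after symbols were updated through RefSeq's gene table. Group means were fitted to the deposited log2 values with limma 3.58.1 in R 4.3.3, with no further normalisation, and called at an adjusted p (Benjamini-Hochberg over all genes) under 0.05. The lines and co-cultures were fitted together, the tumours with the lines alone, and tumours against co-cultures over all 13 arrays. Arrays outside a comparison entered it only through the spread, which was estimated over all arrays of a fit. Differences carry the fit's SE. The test was checked on simulated data.

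All 10 enzymes are named in the comparisons among tumours and the lines alone. In the comparisons with co-cultures all 10 were tested, and those called are named with a few others. Of each pathway list and comparison, the genes named are among the 2 called with the largest positive and the 2 with the largest negative difference, with Nfe2l2, Keap1, Bach1 and Slc7a11 always, and for each enzyme the 2 genes most like it. The enzymes, lists and tests were chosen with earlier results of these data known. The array values of Gstm1 and Aldh1l1 were added after they were seen. Alternatives covered the normalisation, the groups and arrays fitted, the probe set, moderation, thresholds and each array left out. Same-numbered arrays were not treated as pairs, since their deviations from the group means had correlations from -0.15 to 0.14.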

Additional observations from a re-analysis of the deposited data

Results flagged for a closer look

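For Gpx2, the epithelial co-culture minus epithelial difference less the fibroblastic co-culture minus fibroblastic difference was -5.19 (limma, adjusted p = 0.00135), and for Aldh3a1 it was -6.56 (adjusted p = 0.0115). They are given because the test of this difference between the lines passed. Gpx2 gave 1.05 on the epithelial (adjusted p = 0.203) and 6.24 on the fibroblastic co-culture array (adjusted p = 0.000146), each minus its line alone, and Aldh3a1 gave -3.51 and 3.05 in the same order.

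Each side is 1 array, and both arrays held markers of both lines. The epithelial minus fibroblastic differences of the lines alone, 6.68 for Gpx2 and 5.53 for Aldh3a1, enter these values with the opposite sign, so a response to co-culture and the RNA of the other line cannot be told apart.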

How the results depend on the processing

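Of 1946 values of single genes under other settings, 1781 kept their direction and their side of the threshold, 97 lost a call, 42 gained one and 26 changed sign. The cause of these changes was not tested, except where fewer samples, another probe set or a stricter threshold is the change itself. Gclm, Gpx2, Nqo1 and Aldh1a1 kept their calls for tumours against the fibroblastic line under every setting tried.

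An adjusted p under 0.01 left 3391 genes for the epithelial minus the fibroblastic line, 4878 for tumours minus the epithelial line, 453 for the epithelial co-culture minus its line, 532 for the fibroblastic co-culture minus its line, 632 for the difference between these, 893 and 1240 for both co-cultures minus the epithelial and minus the fibroblastic line, and 2506 for tumours minus both co-cultures. Of the 10 enzymes it left 0 higher and 0 lower on the epithelial co-culture array, 1 higher on the fibroblastic one, 1 lower for the difference between these, 0 higher and 0 lower for both co-cultures minus the epithelial line, and 0 lower for tumours minus both co-cultures. Asking for 2-fold as well as an adjusted p under 0.05 left 3310 genes between the lines, 3465 and 4343 for tumours minus the epithelial and the fibroblastic line and 2530 for tumours minus both co-cultures, with 4 enzymes higher for tumours minus the fibroblastic line, 1 higher on the fibroblastic co-culture array and 0 lower for tumours minus both co-cultures.

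The single enzyme lower on the epithelial co-culture array, Aldh3a1, was not called (0 lower) with arrays centred, further quantile normalization, the mean of probe sets, every probe set on its own, trend and robust moderation, only the groups compared, or fibroblastic arrays 2 and 4 left out. With only the groups compared 0 were higher there, 0 lower for both co-cultures minus the epithelial line, 1 lower for both minus the fibroblastic line and 2 lower for tumours minus both. One fit of all 13 arrays called 1743 genes on the epithelial co-culture array, and this fit, array weights and leaving out the genes of lowest expression each gave 1 higher for the difference between the co-culture responses and 1 lower for both co-cultures minus the fibroblastic line. Centring and quantile normalization also gave 1 higher for the difference. Quantile normalization gave 2 higher and 0 lower for tumours minus both co-cultures, and leaving out fibroblastic arrays 2 and 4 gave 2 higher.

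Signs that turned belonged to differences that had not passed, and in the turned sign Txnrd1 passed by the mean of probe sets and by its second probe set, and Srxn1 by its second. For tumours minus the epithelial line, Txnrd1 was 0.0627 centred, 0.1206 after quantile normalization, 0.5683 by the mean of probe sets, 1.2709 by the second probe set and 0.1072 without tumours 1 and 4. Srxn1 was 0.1594 after quantile normalization, 0.1607 by the mean, 0.9759 by the second probe set and 0.0538 with tumour 2 alone, and Gstp1 was 0.0964 centred and 0.0403 without tumours 1 and 4. For tumours minus both co-cultures, Txnrd1 was 0.3828 by the mean and 1.0365 by the second probe set, Srxn1 was -0.1308 by the third probe set and from -0.0037 (without tumour 2) to 0.1786 as single arrays were left out, and Aldh3a1 was -0.0056 with tumour 2 alone. On the epithelial co-culture array Nqo1 was 0.0322 and Srxn1 0.0295 after quantile normalization, and with single arrays left out Nqo1 ran from -0.4724 to 0.4767, the last without epithelial array 3. The second probe set of Gclc gave 0.0911 on the fibroblastic co-culture array and 0.1222 for both minus the fibroblastic line, where Hmox1 was 0.0426 without fibroblastic arrays 2 and 4. For both minus the epithelial line, Nqo1 ran from -0.2844 (without epithelial array 1; -0.0803 without array 2) to 0.6648, Txnrd1 from -0.0167 (without array 3) to 0.2297 and Gpx2 from -0.0534 (without array 2) to 0.6035.

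With tumour 2 as the only tumour, 1958 genes, 1 enzyme higher and 0 lower were called against the epithelial line, 3912 genes and 4 enzymes higher against the fibroblastic line, and 1339 genes against both co-cultures. Without tumours 1 and 4 these were 4549 genes and 2 enzymes lower against the epithelial line and 2744 genes against both co-cultures.

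Leaving out 1 array at a time gave, as enzymes higher, enzymes lower and all genes called, 4 to 6, 2 to 3 and 4431 to 4985 for the epithelial minus the fibroblastic line. Tumours gave 2 to 3, 1 to 2 and 5991 to 7569 minus the epithelial line, 5 to 7, 2 to 3 and 7717 to 8703 minus the fibroblastic line, and 1, 1 to 2 and 3535 to 4698 minus both co-cultures. The epithelial co-culture gave 0 to 1, 0 to 1 and 740 to 950, the fibroblastic one 1 to 3, 0 and 877 to 1095, and their difference 0 to 1, 2 and 989 to 1190. Both co-cultures gave 1, 1 to 2 and 1540 to 2044 minus the epithelial line, and 2 to 3, 0 to 1 and 1934 to 2416 minus the fibroblastic line.

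The replicate numbers did not pair the arrays. A replicate block gave 6 enzymes higher and 2 lower and 4252 genes between the lines, 3 higher and 2 lower and 6638 genes for tumours minus the epithelial line, and 7 higher and 3 lower and 8405 genes for tumours minus the fibroblastic line. The co-culture arrays carry no number, so no block could be fitted there.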

Other observations

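Nqo1 and Aldh3a1 are also targets of the aryl hydrocarbon receptor, and 4 other targets were looked at, chosen after array values had been seen. In the fibroblastic line Ahrr, the receptor's repressor, stood at 8.87 and 8.51 on arrays 2 and 4 and at 5.70 and 5.73 on arrays 1 and 3. Tiparp, another target, stood at 11.69 and 11.64 on arrays 2 and 4 and at 8.57 and 8.51 on arrays 1 and 3. Nqo1 was also higher on arrays 2 and 4, at 11.22 and 11.57. The same arrays stood apart for Gstp1, Gclm, Acta2 and the gap between beta-actin probes as well. The part of the receptor in the Nqo1 and Aldh3a1 levels was not tested. In the epithelial line Tiparp stood at 11.92 on array 3, the array with the highest Aldh3a1 and Nqo1, and at 10.44 and 10.45 on arrays 1 and 2. Ahrr did not follow there, at 4.47 on array 3 and 4.61 and 4.54 on arrays 1 and 2. Cyp1b1 stood at 12.70 and 12.36 on fibroblastic arrays 2 and 4 and at 11.31 and 11.80 on arrays 1 and 3, but in the epithelial line it was lowest on array 3, at 6.05, against 6.43 and 6.14 on arrays 1 and 2. Cyp1a1 was low throughout, at 5.87 and 5.68 on fibroblastic arrays 2 and 4 and 4.86 and 4.88 on arrays 1 and 3, and at 5.43 on epithelial array 3 and 4.63 and 4.73 on arrays 1 and 2.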
